A study of Homo sapiens with 4 samples.

Results

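The genes examined here encode the subunits of the proteasome and the factors that assemble or activate it. They were taken by symbol, as every measured gene named PSMA, PSMB, PSMC, PSMD, PSME or PSMG followed by digits, leaving out the inducible subunits PSMB8, PSMB9 and PSMB10. This gave 41 of 18417 measured genes, each read by the probe set with the highest mean intensity. Of these 41 genes, 39 passed an intensity filter set at the 25th percentile of all genes. The testis form PSMA8 and the thymus form PSMB11 lay under it, at 36.4 to 38.4 and 49.6 to 53.2 intensity units over the 4 arrays. PSMC5, PSMD7 and PSMD13 were not analysed here. Subunits with other names, such as ADRM1 of the cap base, lie outside the symbol rule, and ADRM1 is described with the related genes.

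The samples were DAOY cells, an established human medulloblastoma line, each read on 1 whole-transcript microarray. In all, 3 arrays came from cells given lentivirus with a short hairpin RNA against ZFX, a zinc finger transcription factor (hairpins H2, H3 and H4, 1 array each). The control was 1 array of cells given a scrambled hairpin that targets nothing. All 4 samples shared the cell line, 16 to 24 hours of virus, 48 hours of recovery and about 48 hours in 2 ug/mL puromycin. No array came from cells without virus or puromycin, and nothing in the labels says whether a transduction was repeated. Markers of the line's tumour of origin were not examined here. The comparison asks how lowering ZFX alters gene expression in these cells.

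The 26S proteasome degrades proteins that carry ubiquitin chains. Its barrel-shaped core is built from outer alpha rings, which form the gate, and inner beta rings, which hold the catalytic sites. A regulatory cap, made of a base with a ring of ATPases and a lid with a deubiquitinase, recognises substrates, unfolds them and threads them into the core. Other activators, of the PA28 and PA200 kind, bind the core in the place of the cap. Dedicated chaperones help to assemble core and cap and are not part of the finished particle. Subunit genes are known to be induced together when the proteasome is inhibited, through the transcription factor NFE2L1 (NRF1), which binds antioxidant response elements.

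The promoters of 5 members are shown, for the alpha and the beta subunit highest relative to the scrambled array (PSMA1, PSMB3), the member lowest with 1 hairpin (PSMD5), and both genes of the PA28 alpha-beta activator (PSME1, PSME2), 1 of them lower with every hairpin. Each line gives the 250 bases upstream of the RefSeq start, 5′ to 3′ on the gene's strand, in GRCh38.p14. The regions are chr11:14520387-14520636 (minus strand) for PSMA1, chr17:38752491-38752740 (plus) for PSMB3, chr9:120842923-120843172 (minus) for PSMD5, chr14:24135944-24136193 (plus) for PSME1 and chr14:24146611-24146860 (minus) for PSME2. Capitals mark matches to the antioxidant response element core, TGACNNNGC on either strand.
PSMA1: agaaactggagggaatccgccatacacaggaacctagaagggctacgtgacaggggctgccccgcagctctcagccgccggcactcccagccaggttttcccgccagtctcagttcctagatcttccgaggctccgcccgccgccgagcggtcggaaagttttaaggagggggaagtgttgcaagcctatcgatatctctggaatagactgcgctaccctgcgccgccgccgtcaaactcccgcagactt
PSMB3: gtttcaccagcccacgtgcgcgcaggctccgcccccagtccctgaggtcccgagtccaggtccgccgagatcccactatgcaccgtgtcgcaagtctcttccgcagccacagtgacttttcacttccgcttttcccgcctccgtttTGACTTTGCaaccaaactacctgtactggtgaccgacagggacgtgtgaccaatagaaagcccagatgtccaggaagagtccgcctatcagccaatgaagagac
PSMD5: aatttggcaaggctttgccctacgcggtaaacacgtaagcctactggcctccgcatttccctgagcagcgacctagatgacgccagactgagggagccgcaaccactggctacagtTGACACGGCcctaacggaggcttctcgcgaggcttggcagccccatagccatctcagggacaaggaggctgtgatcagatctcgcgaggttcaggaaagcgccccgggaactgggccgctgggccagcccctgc
PSME1: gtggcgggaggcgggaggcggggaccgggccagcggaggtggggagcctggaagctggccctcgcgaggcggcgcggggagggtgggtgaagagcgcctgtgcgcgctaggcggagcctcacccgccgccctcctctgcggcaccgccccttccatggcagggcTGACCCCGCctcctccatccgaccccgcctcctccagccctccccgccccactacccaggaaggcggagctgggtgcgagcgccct
PSME2: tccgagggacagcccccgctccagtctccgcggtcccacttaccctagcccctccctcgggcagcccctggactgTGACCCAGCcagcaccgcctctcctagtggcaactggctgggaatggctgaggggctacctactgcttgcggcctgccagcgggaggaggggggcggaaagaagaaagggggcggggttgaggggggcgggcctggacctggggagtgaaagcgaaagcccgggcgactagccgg
Counted from the start, the match began at -104 in PSMB3, -134 in PSMD5, -86 in PSME1 and -175 in PSME2, and none was found in the PSMA1 window. RefSeq had promoter windows, of 300 bases with 50 after the start, for 35 of the 41 members (41 windows, since some genes have several starts). TGACNNNGC was found in 13 of these 41 windows, or 31.7%, against 13.3% of all 35116 windows. The core of the ZFX motif, AGGCCT, which is its own reverse complement, was found in 5 of 41, or 12.2%, against 10.9% of all windows. A match describes the letters and does not show binding. Among the members with a window that passed the filter, the 13 with a TGACNNNGC match had a median log2 difference of 0.008 and the 20 without had -0.03, each as the mean of the hairpin arrays minus the scrambled array.

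ZFX itself, the check on the labels, read 744.9, 749.6 and 995.6 with H2, H3 and H4, against 1430 on the scrambled array. It was thus at 52.1%, 52.4% and 69.6% of the scrambled level. Over all genes limma's moderated test called 0 of 13813 (0%) at an adjusted p of 0.05, and 446 genes (3.23%) had an unadjusted p under 0.05. The test compares 3 hairpins with 1 control array on 2 residual degrees of freedom. Its p-values rest on the spread among the 3 hairpin arrays and on spread that limma borrows from other genes. How much the control itself varies could not be measured from 1 array. An exact permutation test of 3 arrays against 1 cannot go below p = 0.25 (two-sided).

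The proteasome genes taken by the symbol rule stayed close to the scrambled array with each hairpin. ADRM1, a cap base subunit outside that rule, did not and was more than 1.2-fold higher with all 3 hairpins. Of the 39 members, 37 (94.9%) were within 1.2-fold of the scrambled array with all 3 hairpins, against 58.7% of all genes. Among genes not below the 75th intensity percentile, a limit set after seeing the data that keeps 36 of the 39, the figures were 34 of 36 members and 60.6% of genes. The 2 members outside this range were PSMD5 and PSME1, both lower and both with H2 alone past 1.2-fold. With H2, 2 of 39 members were at least 1.2-fold lower, against 19.8% of all genes, and 0 were as much higher, against 8.54%. With H3 it was 0 lower and 0 higher, against 9.14% and 5.89% of genes. With H4 it was 0 lower and 0 higher, against 13.3% and 4.63%. No member was past 1.2-fold on 1 side with every hairpin, where 2.94% of all genes were lower and 0.71% higher. In limma 0 of 39 members passed (smallest adjusted p = 0.9998), against 0% of all genes. An unadjusted p under 0.05 was found for 1 member, PSMA1 (2.56%), against 3.23% of all genes.

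**Figure D1:**
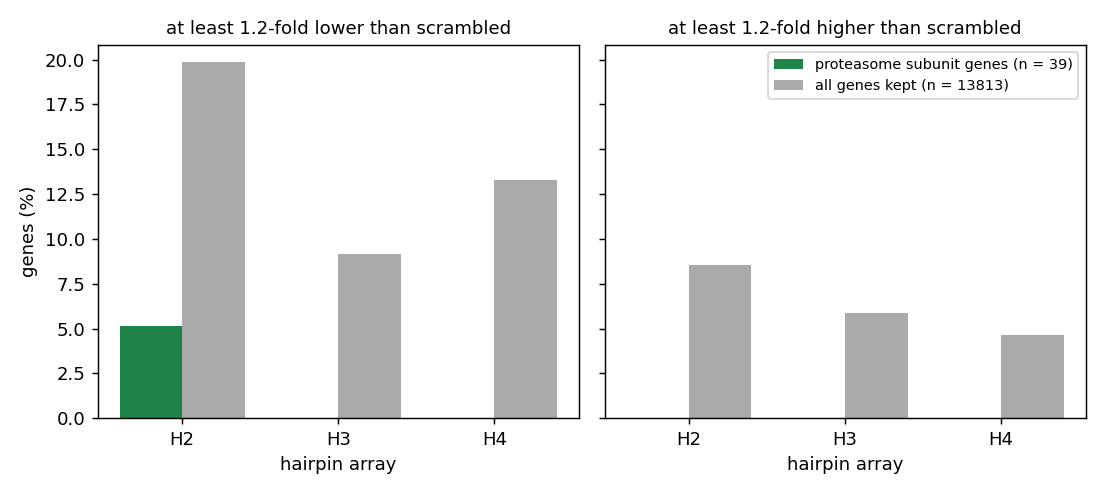
Share of genes (%) at least 1.2-fold lower (left) or higher (right) than the scrambled array on each hairpin array, for 39 proteasome subunit genes (green) and all 13813 genes kept (grey). Members reached 1.2-fold only with H2 and only on the lower side, at 5.13% against 19.8% of all genes, and no green bar stands elsewhere because the count was 0.

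The members had no common direction. Over the 39 genes, median log2 differences for H2, H3 and H4 stood at 0.008, -0.02 and -0.005, against -0.03, -0.02 and -0.05 over all genes. With all 3 hairpins, 9 members were lower and 8 were higher in the values as deposited, or 23.1% and 20.5%, against 30.6% and 16.9% of all genes. That split depended on the scaling of the arrays. Centring each array on its median gave 1 lower and 15 higher (19.4% and 26.9% of all genes), quantile normalization 7 and 12 (20.8% and 26.3%), and cyclic loess 5 and 13 (24% and 23.2%). Under all 4 scalings 7 members (17.9%) were higher with every hairpin and 1 (2.56%) was lower, against 16.7% and 17.7% of all genes. The 7 were PSMA1, PSMA4, PSMB1, PSMB3, PSMC1, PSMC2 and PSMG1, and the 1 was PSME1. The spread between hairpins had a median SD of 0.06 on the log2 scale for the members and 0.11 for all genes. Of the 39 members, 31 had an SD below that of the median gene. Among genes not below the 75th intensity percentile the median SDs were again 0.06 and 0.11. Neither this spread nor the share within 1.2-fold was compared at closer matched intensity, and most members are bright.

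**Figure D2:**
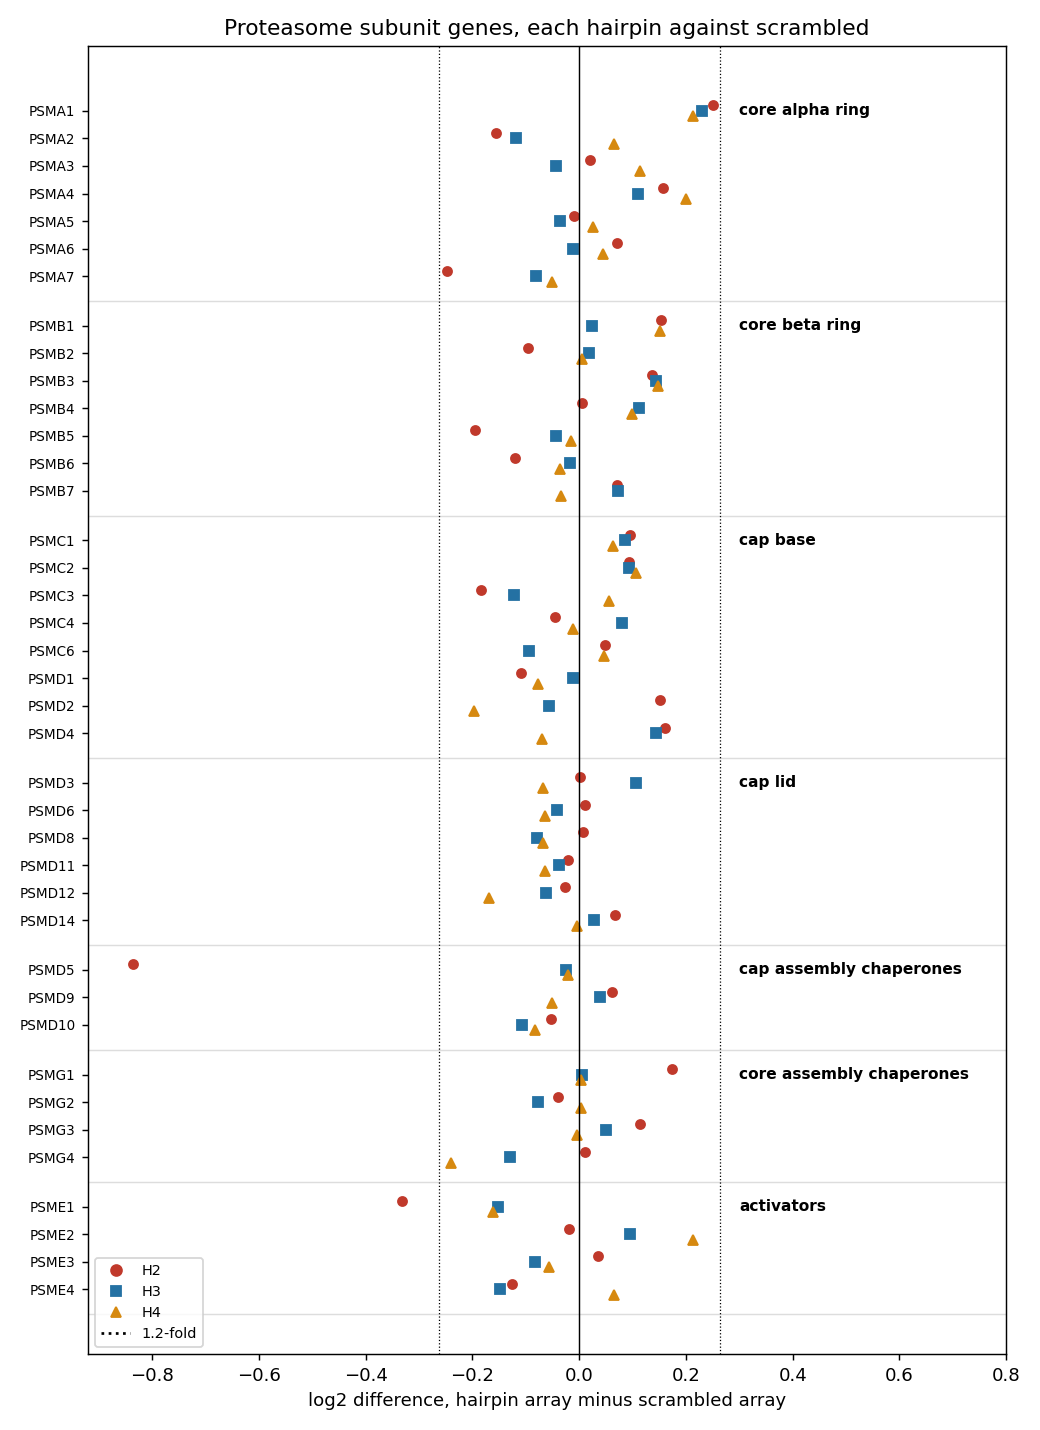
Log2 difference of each hairpin array from the scrambled array (x axis) for the 39 proteasome subunit genes that passed the intensity filter, in their role groups, with 1 point per array and dotted lines at 1.2-fold. All points lie between the dotted lines except PSMD5 with H2, at -0.84, and PSME1 with H2, at -0.33.

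The counts for the role groups that follow rest on 3 to 8 genes each and are to be read against the same shares of all genes, 30.6% lower and 16.9% higher with every hairpin.

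In the alpha rings, which make the gated ends of the core, 2 of 7 genes were higher and 1 was lower with every hairpin, and the median difference was 0.03. PSMA1 (probe set 7946728), the alpha 6 subunit, read 8766, 8646 and 8543 with H2, H3 and H4, against 7372 on the scrambled array. The 3 hairpin arrays lay within a narrow band, all above the control, at 116% to 119% of it. On the log2 scale they averaged 0.23 ± 0.02 above it (SD over 3 hairpins, with SE 0.07 and adjusted p = 0.9998 in limma). PSMA7 (8067382), the alpha 4 subunit, read 1982, 2225 and 2271, against 2352 on the scrambled array. It was lower with each hairpin and furthest with H2, with a mean of -0.13 ± 0.11, although the side did not hold with every hairpin under each scaling. PSMA4, the alpha 3 subunit, differed by 0.16, 0.11 and 0.20 with H2, H3 and H4. The other 4 kept alpha genes, PSMA2, PSMA3, PSMA5 and PSMA6, lay on both sides of the control, between -0.16 and 0.11. PSMA8, under the filter, differed by -0.06, -0.08 and -0.07.

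In the beta rings, 3 of 7 genes were higher and 2 lower with every hairpin, with a median of 0.04. PSMB3 (8006812), a structural beta subunit, read 5560, 5592 and 5605 with H2, H3 and H4, against 5059 on the scrambled array. The 3 hairpin arrays were nearly equal, at 109.9% to 110.8% of the control, so its mean difference of 0.14 ± 0.006 had the smallest hairpin SD of the 39 members. The SE in limma, which borrows spread from other genes, was 0.09. PSMB1, another structural subunit, differed by 0.15, 0.02 and 0.15.

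The genes of the 3 catalytic subunits lay on both sides of the control. PSMB5 (7977879), which carries the chymotrypsin-like site, read 3509, 3897 and 3975 with H2, H3 and H4, against 4016 on the scrambled array. Its H2 array was lowest, at 87.4% of the control, and the other two were at 97.04% and 98.98% (mean -0.08 ± 0.10). PSMB6 (8003953), with the caspase-like site, read 9635, 10336 and 10214, against 10467 (mean -0.06 ± 0.05). PSMB7 (8164067), with the trypsin-like site, read 9161, 9179 and 8522, against 8725, so it was higher with H2 and H3 and lower with H4 (mean 0.04 ± 0.06). For PSMB5 and PSMB6 the side did not hold with every hairpin under each scaling.

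**Figure D3:**
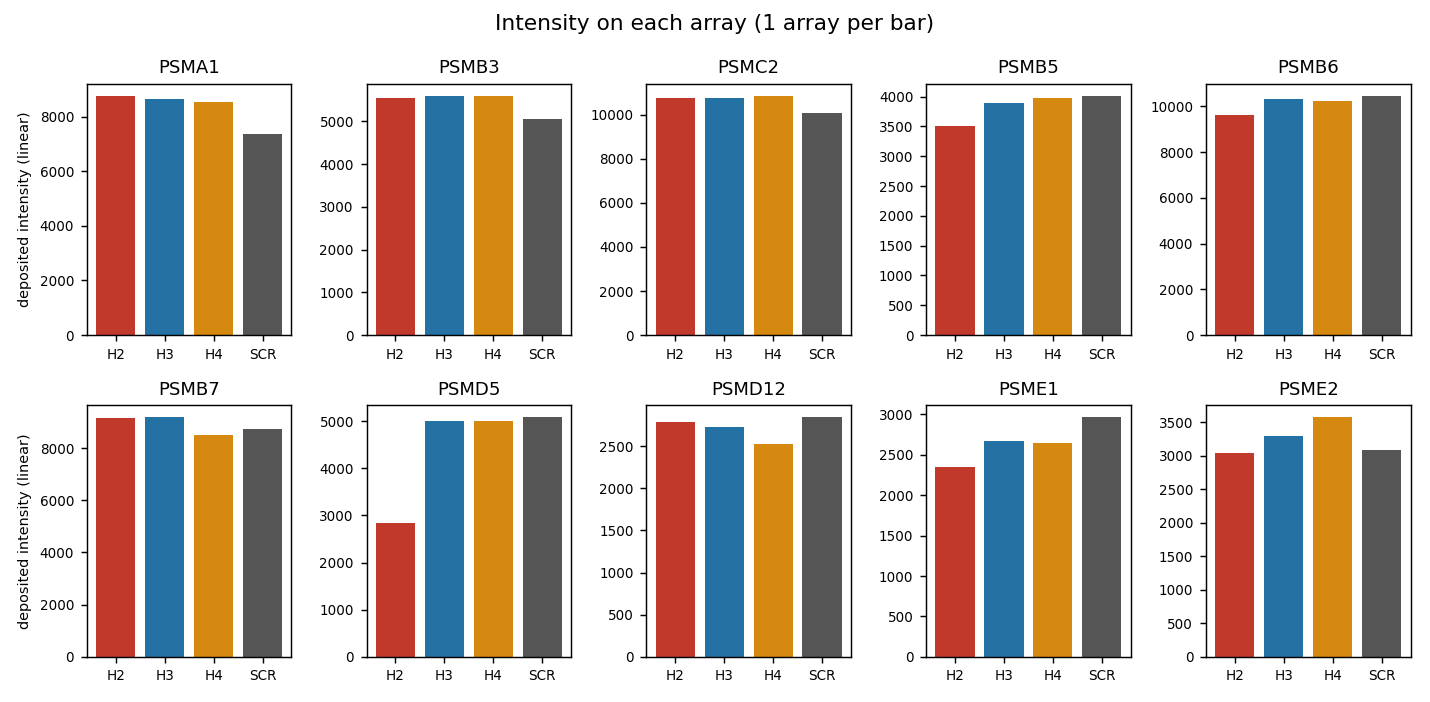
Deposited intensity on a linear axis from 0 for 10 members, with 1 bar per array (H2, H3, H4 and scrambled, SCR). PSMA1, PSMB3 and PSMC2 are evenly higher on the 3 hairpin arrays, PSMD5 is low on the H2 array alone (2845, against 5080 on the scrambled array), and PSME1 is lower on all 3.

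The cap base joins a ring of ATPases, which unfold substrates, to ubiquitin receptors and scaffolds. Of its 8 measured genes under the symbol rule, which leaves out ADRM1, 2 were higher and 1 lower with every hairpin, with a median of 0.004. PSMC2 (8135250), an ATPase, read 10772, 10770 and 10872 with H2, H3 and H4, against 10095 on the scrambled array. It was at 106.7% to 107.7% of the control on the hairpin arrays (mean 0.10 ± 0.008, with SE 0.07 in limma). PSMC3 (7947867), another ATPase, read 3010, 3142 and 3554, against 3418, with H2 and H3 below the control and H4 above it (mean -0.08 ± 0.12). PSMC1, an ATPase, differed by 0.10, 0.09 and 0.06, and its second probe set by 0.10, 0.08 and 0.06. The probe sets of PSMC6 differed from each other. The kept one (8150870) differed by 0.05, -0.09 and 0.05, and the other (7974380) by -0.07, -0.12 and 0.02, with means of 0.0003 and -0.06. RefSeq names 13 pseudogenes of PSMC1 and 3 of PSMC6, and 48 in all for 20 members, so probes may read related transcripts. PSMD2, the large scaffold that also receives ubiquitin-like domains, had the widest hairpin range in the base, with 0.15, -0.06 and -0.20 with H2, H3 and H4. PSMD4, a ubiquitin receptor, differed by 0.16, 0.14 and -0.07.

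The cap lid carries the deubiquitinase PSMD14. Of its 6 measured genes under the symbol rule, 0 were higher and 2 lower with every hairpin, PSMD11 and PSMD12, with a median of -0.04. The lower count, 2 of 6, is near the 30.6% of all genes. PSMD14 (8045946) read 6099, 5933 and 5801 with H2, H3 and H4, against 5821 on the scrambled array, a mean of 0.03 ± 0.04. PSMD12 (8017810), a scaffold subunit of the lid, read 2791, 2723 and 2528, against 2842. It was lowest with H4, at 89.0% of the control (mean -0.09 ± 0.07). PSMD11, whose raised level is known to promote 26S assembly in human pluripotent cells, differed by -0.02, -0.04 and -0.06. Both lost their common side under at least 1 other scaling. By hairpin, in the order H2, H3, H4, the 14 kept core genes had medians of 0.01, 0.004 and 0.06, while the 14 genes of cap base and lid had 0.009, -0.02 and -0.06. A difference between core and cap was not tested.

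Among the chaperones that build the cap, PSMD5 stood apart from the other members. PSMD5 (8163795), also called S5B, read 2845, 4995 and 5008 on the H2, H3 and H4 arrays, against 5080 on the scrambled array. The H2 array alone was low, at 56.0% of the control, and the other two were at 98.3% and 98.6%. The log2 differences were -0.84, -0.02 and -0.02, a mean of -0.29 ± 0.47 (SD, n = 3; SE 0.35 in limma, adjusted p = 0.9998). Without H2 the mean was -0.02, without H3 -0.43 and without H4 -0.43. With H2, 318 of the 13813 genes (2.3%) were further below the control than PSMD5, and the next lowest member was PSME1 at -0.33. PSMD9 (7959322), a chaperone of the ATPase ring, read 870.0, 856.8 and 804.5, against 833.5 (mean 0.02 ± 0.06), and turned to -0.006 without H2. PSMD10, the ATPase chaperone gankyrin, differed by -0.05, -0.11 and -0.08.

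The nearest genes to PSMD5 that passed the intensity filter, in RefSeq order on chromosome 9, were looked up after its value was seen. PHF19, a Polycomb-associated gene on the promoter side of PSMD5, read 1843, 2950 and 2888 with H2, H3 and H4, against 3008 on the scrambled array. Its differences of -0.71, -0.03 and -0.06 had the same layout as those of PSMD5, with H2 alone low. FBXW2, an F-box gene on the other side, read 3078.5, 3060 and 2765, against 3052.5, and was not low with H2 (0.01). Next outward among the kept genes, MEGF9 differed by 0.05, -0.39 and -0.10, and TRAF1 by -0.23, 0.08 and -0.38. At 1.2-fold, 19.8% of all genes were lower with H2, against 9.14% with H3 and 13.3% with H4. IRF9, among the nearest kept genes to PSME2 on chromosome 14, was also lowest with H2. It differed by -0.85, -0.07 and -0.26. The other kept neighbours of PSME1 and PSME2 had no common layout. With H2, DCAF11 differed by -0.21, FITM1 by 0.40 and RNF31 by 0.06, and EMC9 was lowest with H4 (-0.27). What PSMD5 and PHF19 share with H2 was not tested.

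**Figure D4:**
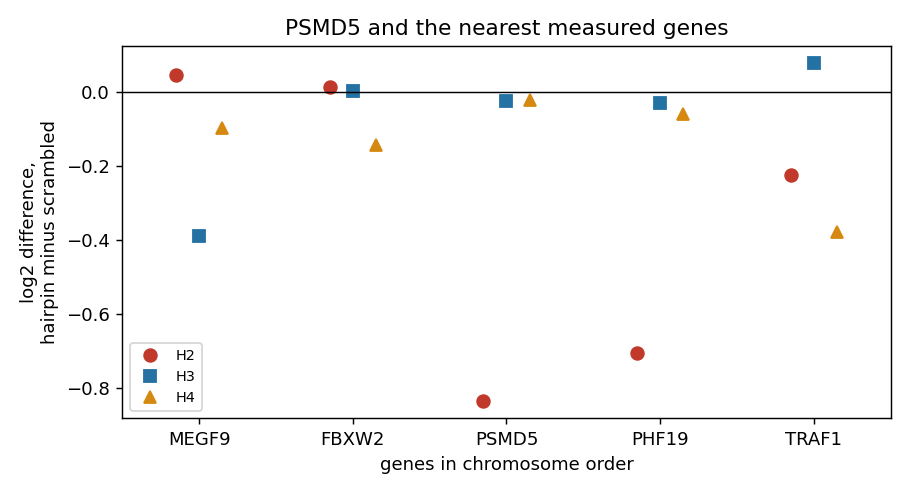
Log2 difference of each hairpin array from the scrambled array for PSMD5 and its neighbours in chromosome order, with 1 point per array. The neighbours are the 2 nearest genes on each side that passed the intensity filter. PSMD5 and PHF19 lie at -0.84 and -0.71 with H2 and near 0 with H3 and H4, while FBXW2 lies at 0.01 with H2.

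Of the 4 chaperones that build the core, 1 was higher and 0 were lower with every hairpin, and their median difference was 0.008. PSMG1 (8070330), which pairs with PSMG2 to form the alpha ring, read 2397, 2132 and 2130 with H2, H3 and H4, against 2124 on the scrambled array. It was at 112.9% of the control with H2 and at 100.4% and 100.3% with H3 and H4 (mean 0.06 ± 0.10). Without H2 its mean was 0.005. PSMG4 (8116655), the partner of PSMG3, read 341.3, 309.6 and 286.7, against 338.7, and was lowest with H4, at 84.6% (mean -0.12 ± 0.13). PSMG2 differed by -0.04, -0.08 and 0.004 and PSMG3 by 0.11, 0.05 and -0.005.

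Of the 4 activator genes 1 was lower and 0 were higher with every hairpin, with a median of -0.05, and the 1 was the only member lower with every hairpin under all 4 scalings. PSME1 (7973564), the alpha chain of the interferon-inducible PA28 activator, read 2354, 2669 and 2649 with H2, H3 and H4, against 2964 on the scrambled array. It was at 79.4%, 90.0% and 89.4% of the control, a mean of -0.22 ± 0.10 (SD, n = 3; SE 0.13 in limma, adjusted p = 0.9998). PSME2 (7978123), the beta chain of the same heptamer, read 3041, 3291 and 3572, against 3081. It was level with the control with H2 and above it with H3 and H4 (mean 0.10 ± 0.12). The 2 chains thus lay on opposite sides of the control with H3 and H4 but not with H2. RefSeq names 6 pseudogenes of PSME2, which its probes may also read. The genes lie on chromosome 14 with EMC9, an ER membrane complex gene, between them, which read 461.4, 501.0 and 430.6, against 519.4. PSME3 (8007397), the nuclear PA28 gamma, read 6233, 5742 and 5852, against 6083 (mean -0.03 ± 0.06). PSME4 (8052149), PA200, read 3349, 3298 and 3824, against 3656, below the control with H2 and H3 and above it with H4 (mean -0.07 ± 0.12).

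The inducible beta subunits, which replace the catalytic ones in the immunoproteasome, were lower with each hairpin in the values as deposited, as were 30.6% of all genes. PSMB8 read 406.8, 545.4 and 495.1 with H2, H3 and H4, against 553.9 on the scrambled array, and PSMB9 read 2099, 2441 and 2238, against 2484. PSMB10 read 307.5, 330.7 and 345.3, against 353.1. Their mean differences were -0.21 ± 0.22, -0.14 ± 0.11 and -0.11 ± 0.08, each with H2 lowest and adjusted p = 0.9998 in limma. Without H2 the means were -0.09, -0.09 and -0.06. After quantile normalization none of the 3 genes was lower with every hairpin, and PSMB10 was not after centring or cyclic loess either. PSMB8 and PSMB9 each have 3 probe sets with identical values, which count once.

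Of 32 genes that work with the proteasome under other names or as its inducible subunits, 27 were measured and all 27 passed the filter. With every hairpin 8 (29.6%) were lower and 3 (11.1%) higher, against 30.6% and 16.9% of all genes, and 0 passed in limma. At 1.2-fold with every hairpin 1 was lower and 1 higher (3.7% each), against 2.94% and 0.71% of all genes. ADRM1 (8063893), the ubiquitin receptor of the cap base also called RPN13, read 5159, 4912 and 4165 with H2, H3 and H4, against 3373 on the scrambled array. All 3 hairpin arrays were above the control, at 153%, 146% and 123%, a mean of 0.49 ± 0.16 (SD, n = 3; SE 0.15 in limma, adjusted p = 0.9998). PSMD1, the base scaffold on which ADRM1 docks, read 5618, 6009 and 5744, against 6060, slightly below the control with each hairpin. UCHL5, the deubiquitinase that ADRM1 binds, differed by 0.16, 0.03 and 0.02. AKIRIN2, which brings proteasomes into the nucleus, differed by 0.22, 0.07 and 0.20. UBQLN2 (8167924), a shuttle that brings ubiquitinated proteins to the proteasome, read 1084, 1380 and 1145, against 1699. It was at 63.8%, 81.2% and 67.4% of the control (mean -0.51 ± 0.18; SE 0.18 in limma, adjusted p = 0.9998). Its relatives UBQLN1 and UBQLN4 differed by -0.06 to 0.05 and by -0.05 to -0.003.

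The transcription factors that drive subunit genes lay on both sides of the control. NFE2L1 read 1889, 2100 and 1569 with H2, H3 and H4, against 1737 on the scrambled array. NFE2L2 read 3115, 3979 and 4544, against 3879, lowest with H2 and highest with H4. NGLY1, the enzyme that activates NFE2L1 by removing its sugars, differed by 0.13, 0.13 and -0.12. POMP, the maturation factor of the core, differed by -0.03, -0.03 and 0.05, and the ATPase VCP (p97), which extracts ubiquitinated proteins, by 0.004, 0.03 and -0.07.

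**Figure D5:**
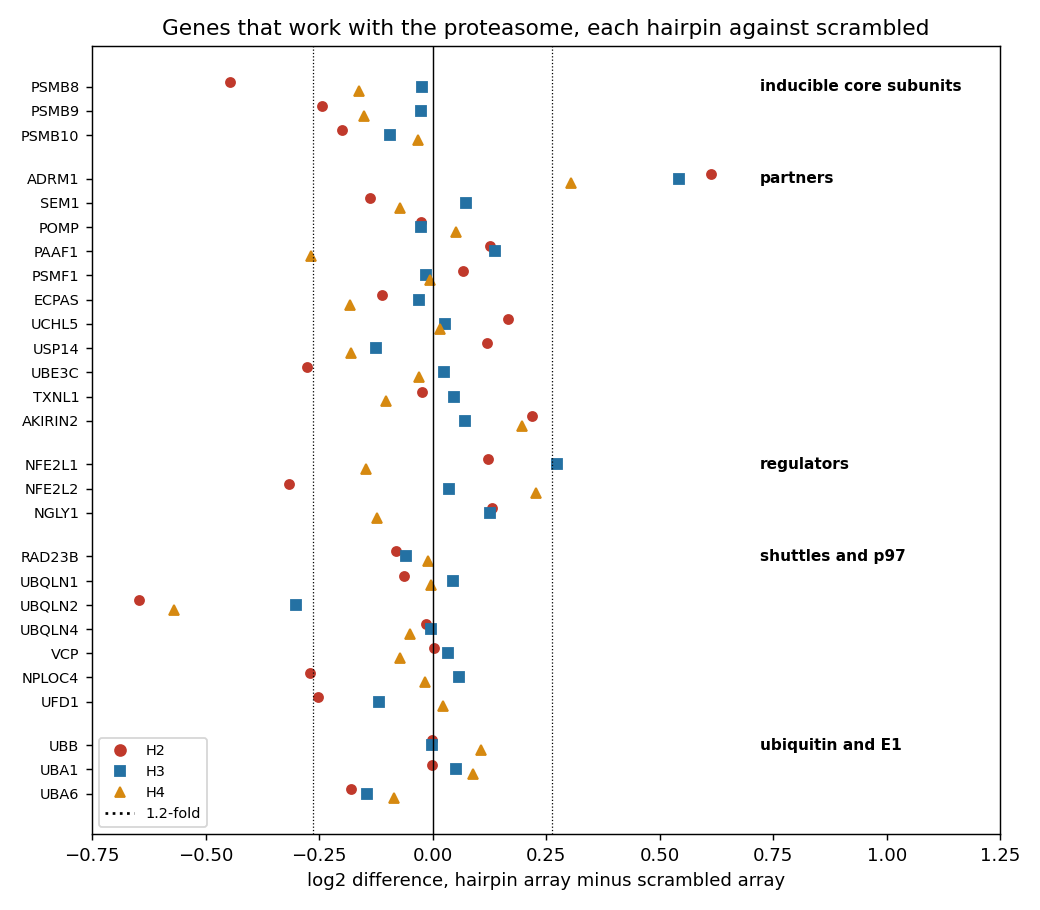
Log2 difference of each hairpin array from the scrambled array (x axis) for 27 genes that work with the proteasome, in their groups, with 1 point per array and dotted lines at 1.2-fold. ADRM1 lies past the right line and UBQLN2 past the left line with all 3 hairpins, and the remaining 25 genes do not.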

How the data were processed

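The deposited table holds 1 linear intensity for each of 33297 probe sets on 4 arrays. These come from 250 ng of total RNA per sample, per the labels, and RMA is the tool that the submitters' processing notes name for the authors' normalization. Its version and the genome build are not stated there. RMA normally gives log2 values, but the deposited intensities are linear (array medians 226.0 to 232.3), so log2 was taken first. Scaling arrays to each other hides a change in total RNA per cell.

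The platform annotation gives 19460 probe sets exactly 1 symbol, for 18417 genes, of which the highest-mean probe set was kept. All 41 members matched RefSeq by gene number. Genes with a mean below 6.78 on the log2 scale (25th percentile) were left out, leaving 13813. The 3 anti-ZFX arrays were set against the scrambled array with limma 3.58.1 in R 4.3.3 (lmFit, eBayes with trend, Benjamini-Hochberg over all genes, threshold 0.05), after a check on simulated data. Single hairpins have 1 array a side and no test, and their differences share the scrambled array. Errors are SDs over the 3 hairpins and leave out the error of that array. No detection call, scan date or slide was used, so batches were not examined, and precision is limited by having 4 arrays. The members and lists were chosen with earlier results of these data known. Arrays correlated at 0.9921 to 0.9962, with at most 33 identical values between 2 arrays. Genes named with values on all arrays were, per role group, the highest and lowest mean difference, the catalytic and activator genes, and any gene 1.2-fold away with every hairpin or past the threshold. The inducible subunits PSMB8, PSMB9 and PSMB10, and ZFX as the check on the labels, were also among these. All other genes given with values were chosen after their values were seen. Figures used matplotlib 3.10.9 and tables pandas 2.3.3 in Python 3.11.15.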

Additional observations from a re-analysis of the deposited data

How the results depend on the processing

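The count of members past limma's threshold was 0 of those kept under all alternatives run, and the share of all genes was likewise 0%. An unadjusted p under 0.05 was found for 1 of 39 members (2.56%) as reported, against 3.23% of all genes. Members lower and higher with every hairpin, 9 and 8 as deposited, were 1 and 15 with each array centred on its median and 5 and 13 with cyclic loess. The same shares of all genes were 30.6% and 16.9%, 19.4% and 26.9%, and 24% and 23.2%. With 1 hairpin left out, fewer arrays had to be on 1 side, and the counts ranged from 10 to 14 lower and from 10 to 14 higher. Of all genes 39.4% to 40.6% were then lower and 23.5% to 27.9% higher. Of 39 members the number past the fold with every hairpin was 0. At a fold of 1.1 it was 1 lower and 1 higher, against 9.28% and 3.38% of all genes. With H2, 2 members were lower and 0 higher at 1.2-fold, against 19.8% and 8.54% of all genes. The numbers were 1 and 1 after centring and after quantile normalization, 6 and 6 at a fold of 1.1, and 1 lower at a fold of 1.5. For all genes the shares lower and higher were 14.4% and 14.9% after centring and 14.4% and 14.2% after quantile normalization. They were 32.6% and 20.6% at a fold of 1.1, and 5.61% were lower at a fold of 1.5. With H3, 0 and 0 became 2 lower and 3 higher at a fold of 1.1, against 23.5% and 16.3% of all genes. After quantile normalization 0 higher became 1, against 7.12%. With H4, 0 and 0 became 4 lower and 5 higher at a fold of 1.1, against 29.5% and 13.7% of all genes. After centring 0 higher became 3, against 8.35%. The members' median difference of -0.007 was 0.047 after centring and 0.0223 after quantile normalization, when the median of all genes was 0.0193 and 0.0128, and -0.0244 with the mean over probe sets. With 1 hairpin left out it was -0.0056 without H2, -0.0178 without H3 and -0.0153 without H4. Without H2 the means of PSMA7, PSMB5 and PSMB6 were nearer 0, at -0.0654, -0.0291 and -0.0266, and those of PSME2 and PSMG4 further from it, at 0.1541 and -0.1853. Of 23 named genes followed, 21 kept their sign under the alternatives run. PSMD9 ranged from -0.0056 (without H2) to 0.0509 with 1 hairpin left out, and PSME3 turned to 0.0193 after centring; the cause was not tested. The 75th percentile filter was added after seeing the data. No paired analysis was possible because there was only 1 scrambled array.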
